A study of Mus musculus with 2 samples.

Results

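Among the CD31+CD44+ cells of the E10.0 mouse caudal region, 79 of 2139 cells carried the venous regulator Nr2f2 together with the apelin receptor Aplnr, and are called Nr2f2+Aplnr+ cells here. They were chosen from the 835 cells with Cdh5, which encodes VE-cadherin, at 100 CPM or more, where CPM are the unique molecular identifiers (UMIs) of a gene per 1000000 UMIs of the cell or sum. A member had at least 2 UMIs of Nr2f2 and at least 1 of Aplnr, under 200 CPM of Gja5 (connexin 40, of arteries), under 500 CPM of C1qa, C1qb and C1qc together (complement genes of macrophages), and no UMI of at least 1 of Gfi1 and Neurl3, genes of endothelium that turns into blood. The other 756 cells with Cdh5 are called the remaining cells. Of these, 437 were Gja5-high, with Gja5 at 200 CPM or more. Another 67, called Kitl+ cells, had low Gja5, 2 or more UMIs of Kitl, the gene for the Kit ligand, and under 2 UMIs of Nr2f2. Both classes also had low C1q and no UMI of at least 1 of Gfi1 and Neurl3. The other 252 cells met neither description.

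The study asked how loss of Nupr1 in endothelium changes the formation of blood stem and progenitor cells in the aorta-gonad-mesonephros region. Cells from the caudal part of E10.0 C57BL/6 embryos were sorted on CD31 and CD44, tagged by genotype with hashtag oligos and sequenced by 10x Chromium in 2 replicates. The conditional knockout (cKO) embryos carried VEC-Cre, a Cre driven by the Cdh5 promoter and thus active in endothelium and the blood made from it, and Nupr1 fl/fl. Controls were Nupr1 fl/fl or fl/+ littermates, labelled WT, and cells of a replicate were pooled over embryos whose number per tag is not given in the sources used here. The Nr2f2+Aplnr+ cells numbered 17 of 227 Cdh5 cells in control replicate 1, 14 of 179 in control replicate 2, 39 of 245 in cKO replicate 1 and 9 of 184 in cKO replicate 2. UMIs were summed over the cells of a class, genotype and replicate, so every class has 4 sums, always given in that order, and cells were not taken as replicates.

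Arteries and veins of the embryo arise from a common endothelium. Nr2f2, also called COUP-TFII, is the nuclear receptor known for keeping veins venous, where it restrains Notch signalling, and it works with Prox1 when lymphatic vessels bud from veins. Notch ligands and receptors, Hey factors and Efnb2 mark arteries, Ephb4, Flt4 and Aplnr mark veins, and blood stem cells come from the arterial wall.

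The 79 cells held a median of 84462 UMIs (9295 to 206945), against 30451 in the remaining, 23607 in the Gja5-high and 39042 in the Kitl+ cells. A limit set in UMIs is easier to pass in a deep cell, and the part of depth in the differences below was not tested except where values for deep cells or for a gate in CPM are given. The summed depths were 1473985, 884562, 3613990 and 868885 UMIs. The Kitl+ cells numbered 6, 8, 38 and 15, with summed depths of 238665, 385193, 1626401 and 868161 UMIs. Most of them were thus cKO cells, and a level of 0 in a Kitl+ control sum rests on few cells and UMIs. No barcode was shared by the replicates, 3 of the 79 cells missed the cell quality limits of the study, hashtag doublets had been removed by the authors and no further caller was run. Summed markers of macrophages reached 8.02 to 44.9 CPM in the 4 sums, with 11 of 12 genes having a UMI (53.9 to 154 and 12 of 12 in the remaining cells), of megakaryocytes 6.78 to 59.9 (32.7 to 417), of granulocytes and monocytes 2.77 to 10.2 (52.8 to 147), of mesenchyme 12.2 to 125 (139 to 274) and of erythroid cells 7.91 to 143 (23.0 to 59.2). Xist, the RNA of the inactive X, was seen without a Y-linked gene in 17 of 17, 13 of 14, 0 of 39 and 7 of 9 cells, so sex and genotype cannot be told apart in replicate 1.

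Nr2f2 lies on chromosome 7 of GRCm38, 70351944 to 70366735 on the minus strand, and Aplnr on chromosome 2, 85136225 to 85139923 on the plus strand. Their UMIs chose the cells, so their levels are given as a description. The members held 2 to 36 UMIs of Nr2f2, with a median of 5 and 68.3 CPM (20.3 to 292), and in the 4 sums Nr2f2 stood at 96.3, 75.7, 74.2 and 81.7 CPM. The Kitl+ sums held 8.38, 7.79, 8.61 and 6.91 CPM, and 25 of the 67 Kitl+ cells had 1 UMI of Nr2f2. Means were 82.0 CPM in Nr2f2+Aplnr+, 1.35 in remaining and 0.546 in Gja5-high cells. At the limit of the choice, 19 members had 2 UMIs of Nr2f2 (33.7 CPM over their pooled UMIs) and 24 cells that met every other limit had 1 (18.0 CPM over theirs). Gja4, connexin 37 of arteries, stood at 94.0 and 247 CPM over the same pooled UMIs. Of the cells at 100 CPM of Cdh5, 833 had low C1q, 349 of these also low Gja5, 205 also at least 1 of Gfi1 and Neurl3 at 0 and 79 also 2 UMIs of Nr2f2. The Aplnr limit removed none of the 79.

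Aplnr stood at 145, 199, 150 and 143 CPM, 2.26 times its mean of 70.4 CPM in Kitl+ cells. Nrp2 (chromosome 1, 62703285 to 62818695, plus strand), the neuropilin that binds VEGF-C and class 3 semaphorins and is known from veins and lymphatics, was no part of the choice but names the class. It stood at 258, 199, 180 and 221 CPM in Nr2f2+Aplnr+ cells and at 62.8, 44.1, 78.7 and 41.5 CPM in Kitl+ cells, with no overlap and a ratio of means of 3.78. It was found in 79 of 79 Nr2f2+Aplnr+, 51 of 67 Kitl+ and 39 of 437 Gja5-high cells. After each cell was thinned to 10000 UMIs, leaving out 1, 3 and 43 shallower cells respectively, the shares were 62 of 78 (79.5%, exact binomial 95% interval 68.8 to 87.8), 27 of 64 (42.2%) and 19 of 394 (4.82%), against 44 of 654 macrophages (6.73%). Intervals here cover counting error only.

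The other genes named for the class did not set it apart from Kitl+ cells. Clec1b, the podoplanin receptor of platelets and some endothelium, stood at 123, 75.7, 242 and 94.4 CPM, and in Kitl+ cells at 256, 93.5, 292 and 117, with overlap and a ratio of means of 0.706. Piezo2, a stretch-gated channel, stood at 59.7, 59.9, 96.3 and 48.3 CPM against 88.0, 33.7, 119 and 38.0, again with overlap and a ratio of 0.949. Thinned shares were 52 of 78 (66.7%) and 43 of 64 (67.2%) for Clec1b and 36 of 78 (46.2%) and 30 of 64 (46.9%) for Piezo2, which was found in 0 of 654 thinned macrophages, a count that allows up to 0.459% of such cells with a UMI, and in 2 of 664 unthinned. Kitl itself was present in Nr2f2+Aplnr+ cells at 102, 89.3, 90.2 and 71.4 CPM, and 62 of the 79 cells had 2 or more of its UMIs. The 2 classes thus share low Gja5 and Kitl transcripts and were separated by the limit on Nr2f2.

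**Figure D1:**
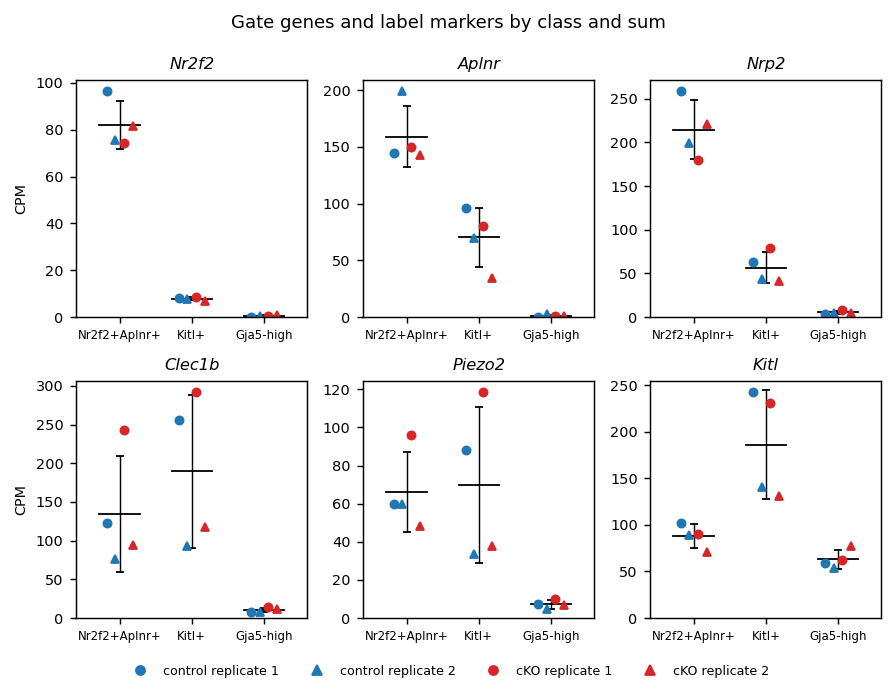
Level in CPM of Nr2f2, Aplnr, Nrp2, Clec1b, Piezo2 and Kitl in Nr2f2+Aplnr+, Kitl+ and Gja5-high cells, 1 point per sum (circle replicate 1, triangle replicate 2, blue control, red cKO), with the mean as a line and the SD as a bar. Nrp2 separates all 4 Nr2f2+Aplnr+ sums (180 to 258 CPM) from the Kitl+ sums (41.5 to 78.7 CPM), while Clec1b and Piezo2 overlap.

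Every other gene was compared between the classes by edgeR's quasi-likelihood test on the sums, with the 4 sources of sums as a block and Benjamini-Hochberg adjustment, and is called at an adjusted p under 0.05. Against remaining cells 3462 of 10801 genes were called (32.1%; 15.1% higher and 16.9% lower), against Gja5-high cells 4455 of 9709 (45.9%; 22.6% higher and 23.3% lower) and against Kitl+ cells 505 of 7055 (7.16%; 2.01% higher and 5.15% lower). The last count was 194 without cKO replicate 1, 263 without cKO replicate 2, 812 without control replicate 2, 74 without the block and 228 by DESeq2. The median log2 fold change of all genes tested was -0.02, -0.03 and -0.01. All 3 comparisons use the same 4 Nr2f2+Aplnr+ sums, and genes that go with Gja5, C1q, Gfi1 or Neurl3 were selected against by the choice of cells. Genes that go with Nr2f2 were selected for in the same way, and those that go with Kitl were selected for in Kitl+ cells. The calls therefore measure how far these cells lie from the others relative to the spread between sums, and do not show that they form a type. The labels do not say that the replicates came from separate litters, so p-values measure only the spread between these pools.

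Genes known from veins moved in both directions. Of the 8 listed venous genes that were tested and had no part in the choice, 5 were called higher and 3 lower than in remaining cells (median log2 fold change 0.65), 3 higher and 3 lower than in Gja5-high cells (-0.03), and 0 higher and 1 lower among 5 tested against Kitl+ cells (0.02). With members chosen at 50 CPM of Nr2f2 and 20 CPM of Aplnr in place of UMIs, the last counts were 1 higher and 1 lower (0.24). Nr2f1, the nuclear receptor closest to Nr2f2, was low but present at 8.14, 4.52, 6.09 and 6.91 CPM, against 0, 0.351, 0.5 and 0 in Gja5-high cells. The sums did not overlap and differed by 4.86 on the log2 scale (SE 0.69, adjusted p = 1.56e-05 by edgeR's quasi-likelihood test). In Kitl+ cells, where it was not tested, it stood at 0, 5.19, 1.23 and 1.15 CPM. Flt4, the receptor of VEGF-C, stood at 69.2, 73.5, 77.8 and 54.1 CPM against 32.6, 35.8, 30.5 and 29.5 in Gja5-high cells, with no overlap and a log2 fold change of 1.21 (SE 0.13, adjusted p = 7.47e-07). Against Kitl+ cells (105, 38.9, 73.2 and 29.9 CPM) Flt4 overlapped and was not called (0.21, adjusted p = 0.632). Emcn, a mucin of veins and capillaries, was 0.33 higher on the log2 scale than in Gja5-high cells (762, 798, 581 and 662 CPM, adjusted p = 0.00207), although the sums overlapped and the call was lost without the block (0.31, adjusted p = 0.13).

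Ephb4, the ephrin receptor that pairs with arterial Efnb2, stood at 58.3, 45.2, 49.8 and 49.5 CPM, above the remaining cells (38.8, 44.0, 37.6 and 42 CPM) without overlap. It was 0.43 higher there on the log2 scale (adjusted p = 0.0111), a call lost without control replicate 1 (0.33) or cKO replicate 1 (0.42) and without the block (0.41). It was called neither against Gja5-high cells (log2 fold change -0.17, adjusted p = 0.279) nor against Kitl+ cells (0.02, adjusted p = 0.971). Vwf, the clotting factor carrier of larger vessels, stood at 14.9, 9.04, 12.5 and 18.4 CPM, lower than in every Kitl+ sum (54.5, 62.3, 70.1 and 123 CPM) and every Gja5-high sum (670, 546, 529 and 627 CPM). Its log2 fold changes were -2.51 (SE 0.23, adjusted p = 7.16e-06) and -5.33 (SE 0.11, adjusted p = 4.41e-16). Aqp1, a water channel, was found at 1.36, 4.52, 2.77 and 6.91 CPM against 50.7, 61.1, 44.0 and 58.6 in Gja5-high cells (-3.81), and Ackr3, the scavenger receptor of Cxcl12, fell by 3.34 on the log2 scale in the same comparison. Nt5e was not detected in any of the 79 cells. Among genes usually read as venous, Nr2f1, Flt4 and Emcn were thus higher than in Gja5-high cells, Emcn only with the block, Ephb4 was called against remaining cells alone, and Vwf, Aqp1 and Ackr3 were lower than in Gja5-high cells. The listed genes are divided, so the cells are named here by Nr2f2 and Aplnr.

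Lymphatic genes were partly present. Prox1, which specifies lymphatic endothelium, stood at 6.11, 2.26, 4.70 and 2.3 CPM and was found in 15 of 79 cells, 2.58 higher on the log2 scale than in remaining cells (SE 0.51, adjusted p = 0.000717). Mmrn1, a matrix glycoprotein of lymphatics, stood at 48.8, 45.2, 47.9 and 32.2 CPM in Nr2f2+Aplnr+ cells and at 7.10, 3.51, 10.0 and 7.86 in Gja5-high cells, without overlap (2.73, SE 0.23, adjusted p = 3.27e-08), and at 33.5, 10.4, 30.1 and 25.3 in Kitl+ cells (0.72, adjusted p = 0.0919). Lyve1, the hyaluronan receptor, was uneven at 16.3, 18.1, 1.11 and 24.2 CPM, as was Stab2, another hyaluronan receptor, at 10.2, 36.2, 1.66 and 10.4 CPM, with cKO replicate 1 the lowest sum for both. Of the lymphatic list 3 of 7 genes were higher than in remaining cells and 0 lower (median 1.22), 2 of 6 higher and 3 lower than in Gja5-high cells (0.35), and 0 of 5 higher and 1 lower than in Kitl+ cells (-0.14). With the choice in CPM, 2 of 6 were higher and 0 lower than in Kitl+ cells (0.64). Of the sinusoidal list 1 of 4, 0 of 3 and 0 of 2 genes were higher and 0, 1 and 0 lower, and Clec4g and Fcgr2b, genes of liver sinusoids, had no UMI in the 79 cells.

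**Figure D2:**
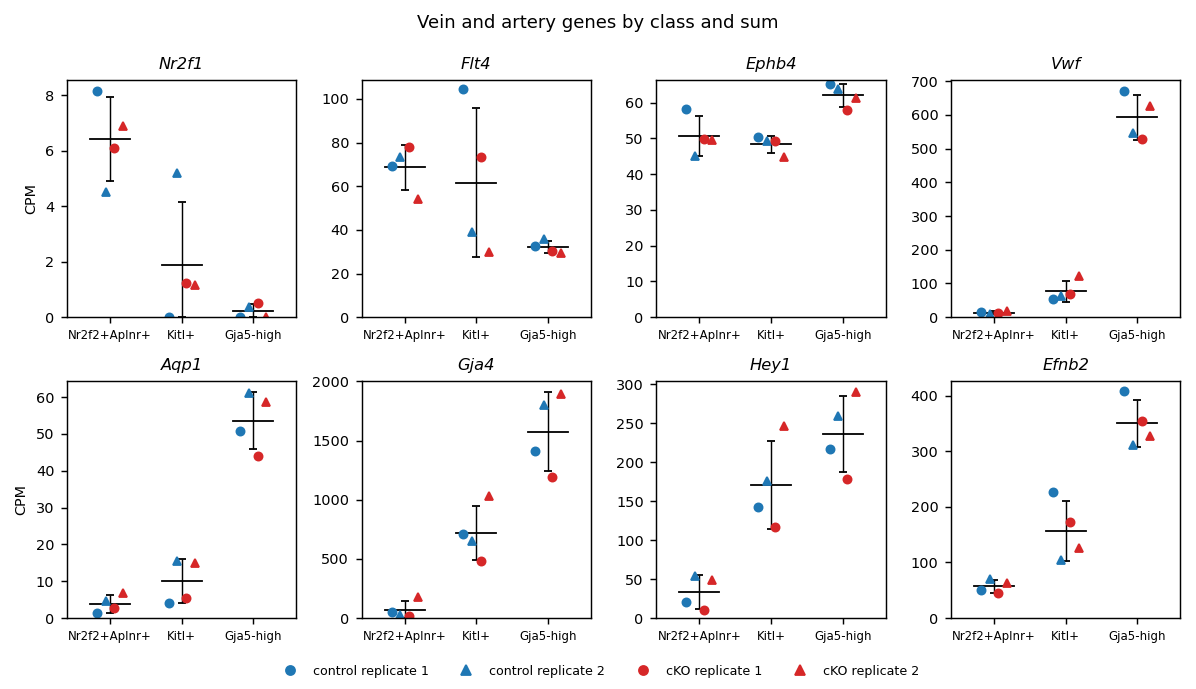
Level in CPM of Nr2f1, Flt4, Ephb4, Vwf, Aqp1, Gja4, Hey1 and Efnb2 by class, 1 point per sum (circle replicate 1, triangle replicate 2, blue control, red cKO), with the mean as a line and the SD as a bar. The Nr2f2+Aplnr+ sums lie lowest for Vwf, Hey1 and Efnb2 and above the Gja5-high sums for Nr2f1 and Flt4, while Ephb4 overlaps between classes.

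Nearly all called genes of the arterial list were lower. Of its tested genes other than Gja5, 18 of 20 were lower than in remaining cells and 0 higher (median log2 fold change -2.51), and 20 of 20 were lower than in Gja5-high cells (-3.28), where the gene that split the classes is itself arterial. In cells of at least 40000 UMIs 1 was higher and 15 lower than in remaining cells (-1.75), and 20 of 20 were lower than in Gja5-high cells (-3.13). Against Kitl+ cells, which also have low Gja5, 10 of 12 were lower and 0 higher (-1.63), and this count was 4 without the block, 8 in cells of at least 40000 UMIs (median -1.34) and 9 to 14 when a source of sums was left out. Gja4 stood at 53.6, 23.7, 17.2 and 182 CPM against 712, 654, 479 and 1033 in Kitl+ cells and 1416, 1804, 1189 and 1898 in Gja5-high cells. The groups did not overlap, though cKO replicate 2 was the highest of its class, and 25 of the 79 cells had a UMI of it. Against Kitl+ cells the change was -3.85 (SE 0.46, adjusted p = 0.0117), a call that was lost without control replicate 1 or without control replicate 2.

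Hey1, a repressor induced by Notch, stood at 20.4, 54.3, 10.2 and 48.3 CPM, under every Kitl+ sum (142, 177, 117 and 246 CPM), with a log2 fold change of -2.63 (SE 0.23, adjusted p = 7.47e-06). Unc5b, a netrin receptor of arterial and tip cells, stood at 36.6, 52.0, 28.8 and 65.6 CPM against 205, 161, 229 and 199 (-2.28, SE 0.22, adjusted p = 1.52e-05), again without overlap. Dll4, the main Notch ligand of arteries, stood at 16.3, 23.7, 12.5 and 18.4 CPM against 41.9, 62.3, 59.6 and 80.6 in Kitl+ cells (-1.93, SE 0.23, adjusted p = 5.24e-05). The ligand Efnb2 stood at 50.2, 70.1, 44.8 and 63.3 CPM against 226, 104, 173 and 126 (-1.52, SE 0.22, adjusted p = 0.000576), and the zinc finger factor Mecom at 17.6, 6.78, 14.4 and 15 against 41.9, 20.8, 71.3 and 48.4 (-1.91, SE 0.26, adjusted p = 0.000166). For each of these 5 genes the 4 Nr2f2+Aplnr+ sums lay below all 4 Kitl+ sums, a description of genes picked by their calls.

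Most called Notch pathway genes were lower as well. Of 15, 14 and 9 tested, 2, 1 and 0 were higher and 9, 10 and 6 lower than in remaining, Gja5-high and Kitl+ cells (medians -0.86, -1.59 and -0.81), and the last count was 3 without cKO replicate 1, 9 without control replicate 2 and 1 without the block. In cells of at least 40000 UMIs the lower counts were 3 of 14, 8 of 11 and 4 of 9 (medians -0.31, -1.62 and -0.89). Hes1, a Notch target that other pathways also induce, stood at 157, 344, 157 and 313 CPM against 285, 628, 194 and 587 in Kitl+ cells. The groups overlapped, but within each source the Nr2f2+Aplnr+ sum was lower (log2 fold change -0.76, adjusted p = 0.0026), whereas against Gja5-high cells Hes1 was 1.05 higher. Notch1, a receptor, was lower than in Kitl+ cells at 62.4, 47.5, 71.4 and 52.9 CPM against 96.4, 93.5, 99.6 and 84.1 (-0.68, adjusted p = 0.0209), with no overlap.

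Few genes were higher in Nr2f2+Aplnr+ than in Kitl+ cells, and the limit on Nr2f2 favoured those that go with it. Bmp4, the secreted ligand that acts through Smad1 and Smad5, stood at 51.6, 24.9, 17.7 and 40.3 CPM against 0, 0, 1.23 and 9.21 in Kitl+ cells. The values of 0 come from the Kitl+ control sums of 6 and 8 cells. The sums did not overlap, and the log2 fold change of 3.13 (SE 0.44, adjusted p = 0.000234) was called under every alternative run. It was found in 38 of 79 cells, and after thinning in 17 of 78 (21.8%) against 1 of 64 Kitl+ (1.56%), 20 of 394 Gja5-high (5.08%) and 0 of 654 macrophages (1 of 664 without thinning). Hoxa5 stood at 39.3, 32.8, 29.1 and 41.4 CPM against 12.6, 5.19, 7.99 and 11.5 in Kitl+ cells (1.88, SE 0.28, adjusted p = 0.000504), and was not called against remaining cells (0.31, adjusted p = 0.0877). It was the 1 of 10 Hox genes higher than in Kitl+ cells (median of the list 0.25), against 4 of 15 higher and 1 lower than in remaining cells (0.39) and 1 of 14 higher and 1 lower than in Gja5-high cells (-0.03).

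Flrt2, a membrane ligand of Unc5 receptors, stood at 51.6, 44.1, 33.2 and 31.1 CPM, while the Kitl+ sums stood at 46.1, 7.79, 4.92 and 5.76 (1.87, adjusted p = 0.00641). Control replicate 1 made the groups overlap, and without cKO replicate 1 the value was 1.43 and not called. Col23a1, a transmembrane collagen, stood at 38.7, 13.6, 18.8 and 20.7 CPM against 12.6, 0, 4.92 and 3.46 (2.13, SE 0.38, adjusted p = 0.00201). Hapln1, which links hyaluronan to proteoglycans, was abundant at 233, 133, 449 and 174 CPM against 58.7, 80.5, 279 and 121, with overlap between groups but a higher value within each source (0.82, adjusted p = 0.0112), and with members chosen at 50 CPM of Nr2f2 and 20 CPM of Aplnr in place of UMIs (55 cells) the difference was 0.28 and not called. The heat shock genes Hspa1a and Hspa1b, raised by stress, were 1.67 and 1.43 higher. Immediate early genes were called higher in 4 and lower in 3 of 10 against remaining cells (median -0.16), in 3 and 1 of 9 against Gja5-high cells (0.17) and in 0 of 9 against Kitl+ cells (-0.37), and in cells of at least 40000 UMIs the counts were 2 and 4, 1 and 4, and 0 and 2.

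Other genes stood out against Gja5-high cells and were shared with Kitl+ cells to differing degrees. Prl3b1, a placental lactogen, stood at 26.5, 12.4, 8.02 and 48.3 CPM, was found in 34 of the 79 cells, and was at 0, 0, 3.07 and 4.61 CPM in Kitl+ cells. Against remaining cells (0.738, 0, 0.898 and 1.36 CPM) it was 4.88 higher on the log2 scale (SE 0.41, adjusted p = 9.69e-08), without overlap. Tgfbi, a matrix protein induced by TGFb, stood at 32.6, 38.4, 14.9 and 59.8 CPM against 0.646, 0, 1.50 and 0.655 in Gja5-high (5.86, SE 0.42, adjusted p = 1.07e-08) and 20.9, 20.8, 9.22 and 16.1 in Kitl+ cells, where the ranges overlapped (1.09, SE 0.29, adjusted p = 0.0271). Gpr183, an oxysterol receptor, was 5.00 higher than in Gja5-high cells, at 28.5, 26.0, 46.5 and 28.8 CPM, and 0.84 higher, not called, against Kitl+ cells (adjusted p = 0.056). Pde2a, a phosphodiesterase, and Kcne3, a potassium channel subunit, were 3.88 and 5.63 higher than in Gja5-high cells, with 0.29 and -0.48 against Kitl+ cells, both not called. Apln, the ligand of Aplnr, stood at 15.6, 13.6, 27.1 and 10.4 CPM and was 3.81 higher than in Gja5-high cells, but not called against Kitl+ cells (-0.45, adjusted p = 0.39).

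**Figure D3:**
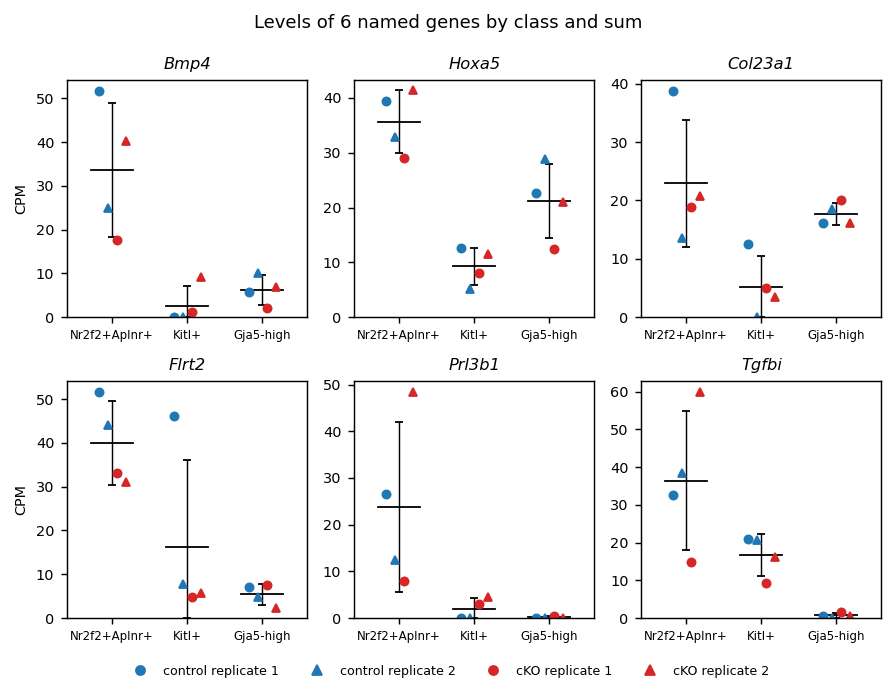
Level in CPM of Bmp4, Hoxa5, Col23a1, Flrt2, Prl3b1 and Tgfbi by class, 1 point per sum (circle replicate 1, triangle replicate 2, blue control, red cKO), with the mean as a line and the SD as a bar. All 4 Nr2f2+Aplnr+ sums lie above every Kitl+ sum for Bmp4, Hoxa5 and Col23a1, and 1 Kitl+ sum of Flrt2 (46.1 CPM) lies within their range.

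Genes lower than in Kitl+ cells were led by Mfsd2a, the lipid transporter of brain endothelium, at 0, 0, 1.38 and 3.45 CPM against 117, 28.6, 43.7 and 16.1 (log2 fold change -5.34, SE 0.54, adjusted p = 5.17e-05). The protease gene Htra3 stood at 2.71, 1.13, 10.2 and 2.3 CPM against 117, 70.1, 84.2 and 13.8 (-3.78, adjusted p = 1.9e-05), and Tnfrsf11b, osteoprotegerin, at 4.75, 0, 5.81 and 0 against 29.3, 15.6, 53.5 and 15 (-3.30). Esm1, a proteoglycan of sprouting tip cells, stood at 4.75, 18.1, 21 and 15 CPM against 101, 49.3, 174 and 89.8 (-2.90, SE 0.29, adjusted p = 1.9e-05), and Igfbp7 at 36.0, 7.91, 16.0 and 42.6 against 285, 190, 220 and 150 (-3.19, adjusted p = 0.00445). Vwa1, a matrix protein, stood at 62.4, 41.8, 70.3 and 29.9 CPM against 339, 202, 247 and 157 (-2.20, SE 0.16, adjusted p = 4.29e-07). None of these 6 genes overlapped between the classes, again a description of genes picked by their calls. Rgcc, a cell cycle regulator induced in endothelium, lay between the classes, with log2 fold changes of -1.33 against Kitl+ and 4.11 against Gja5-high cells.

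Of the capillary plexus list 5 of 7 genes were lower than in Kitl+ cells and 0 higher (median -0.60; 3 to 6 when a source was left out, 1 without the block), against 4 of 8 higher and 2 lower than in remaining cells (0.12) and 3 higher and 4 lower than in Gja5-high cells (-0.57). In cells of at least 40000 UMIs the plexus counts were 0 higher and 3 lower, 6 and 0, and 1 and 5 in the same order. Of the VEGF and semaphorin list 3 of 13 were higher and 7 lower than in remaining (-0.97), 2 of 13 higher and 11 lower than in Gja5-high (-1.77), and 0 of 7 higher and 2 lower than in Kitl+ cells (-0.36). For this list the deep cells gave 4 and 5 of 13 (-0.25), 1 and 7 of 10 (-1.25), and 0 and 1 of 7 (-0.10). Nrp1, the neuropilin of arteries, stood at 165, 193, 243 and 139 CPM against 1119, 980, 1041 and 993 in Gja5-high cells (-2.37, adjusted p = 1.59e-08), and was not called against Kitl+ cells (-0.96, adjusted p = 0.144). Vegfc, the ligand of Flt4, stood at 12.2, 28.3, 12.7 and 35.7 CPM against 41.9, 41.5, 68.9 and 105 in Kitl+ cells (-1.75, adjusted p = 0.000428), without overlap. The Nr2f2+Aplnr+ cells thus held Nrp2 and Flt4 at higher and Nrp1 and Vegfc at lower levels than Gja5-high cells, each gene compared with itself.

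Angiopoietin and Tie genes were lower in 4 of 4 against remaining (median -1.0) and Gja5-high cells (-1.77), and 1 of 3 was higher and 0 lower than in Kitl+ cells (-0.47). That 1 was Tek, the Tie2 receptor, at 70.6, 69.0, 68.6 and 73.7 CPM against 54.5, 46.7, 38.7 and 26.5 (0.82, adjusted p = 0.0243), which did not overlap. The Tek call was lost without cKO replicate 1, without cKO replicate 2, by DESeq2, without the block and in cells of at least 40000 UMIs. Of 13 genes of endothelium in general, 5 were higher and 5 lower than in remaining cells (-0.16), 1 higher and 9 lower than in Gja5-high cells (-0.48), and 1 higher and 2 lower than in Kitl+ cells (-0.36). Flow-sensing genes were called higher in 1 and lower in 3 of 9 against remaining (-0.37), 0 and 8 of 9 against Gja5-high (-0.76) and 0 and 1 of 7 against Kitl+ cells (-0.40). In cells of at least 40000 UMIs the counts against remaining cells were 6 higher and 0 lower for endothelium in general (median 0.22), 3 and 0 for flow-sensing genes (0.33) and 0 and 2 for angiopoietin and Tie genes (-0.32), with Tek at 0.28 in place of -0.50. Of a list of NR2F family members and other transcriptional regulators, which shares Nr2f1 with the venous list, 5 of 15 were higher and 5 lower (0.09), 2 of 15 higher and 7 lower (-0.44), and 0 of 12 higher and 5 lower (-0.31) against remaining, Gja5-high and Kitl+ cells. The 5 lower than in Kitl+ cells were Sox7, Sox17, Sox18, Lmo2 and Ets1, and Sox7 stood at 18.3, 32.8, 33.8 and 28.8 CPM against 96.4, 57.1, 76.9 and 84.1 in Kitl+ cells (-1.45, adjusted p = 0.000676).

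Among BMP and TGFb genes the ligand Bmp4 was higher, while most other called members were lower than in Kitl+ cells. Of 18, 17 and 15 tested, 6, 3 and 1 were higher and 6, 10 and 6 lower than in remaining, Gja5-high and Kitl+ cells (medians -0.09, -0.66 and -0.40), and the last count was 1 without the block. The 1 higher gene against Kitl+ cells was Bmp4. In cells of at least 40000 UMIs 7 of 16 were higher and 4 lower than in remaining cells (0.29). There 3 of 15 were higher and 7 lower than in Gja5-high cells (-0.41), and 1 of 14 higher and 2 lower than in Kitl+ cells (-0.28). Smad6, an inhibitory Smad that BMP induces, stood at 3.39, 2.26, 4.70 and 6.91 CPM against 25.1, 31.2, 13.5 and 21.9 in Kitl+ cells (-2.11, adjusted p = 0.00248), with no overlap, and the value against Gja5-high cells was -4.32. Id1 and Id3, also induced by BMP, were lower than in Kitl+ cells, with log2 fold changes of -1.13 and -0.76 (adjusted p = 0.000884 and 0.00883), and the receptor Acvrl1 was lower at -0.78. Smad1, which carries the signal, was 0.87 higher than in Gja5-high cells and at 0.22, not called, against Kitl+ cells.

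Cycling genes were higher, by counts that depended on how the cells were chosen. Of the 12 S phase genes 8, 12 and 5 were higher and 0 lower than in remaining, Gja5-high and Kitl+ cells (medians 0.33, 0.90 and 0.60), and of the 12 G2 and M phase genes 11, 10 and 4 were higher and 0 lower (0.94, 1.34 and 0.88). Against Kitl+ cells the S phase count was 1 without cKO replicate 1, 9 without control replicate 2, 0 in cells of at least 40000 UMIs and 1 with the choice in CPM, and the G2 and M count was 10 without cKO replicate 2, 2 in the deep cells and 1 with the choice in CPM. The 2 medians were 0.43 and 0.82 in the deep cells and 0.26 and 0.33 with the choice in CPM. Over all genes 140 of 6630 were called in the deep cells and 574 of 7103 with the choice in CPM, beside 505 of 7055. Against Gja5-high cells the deep cells gave 10 and 5 higher (medians 0.67 and 1.07), and against remaining cells 2 of the S phase genes higher and 2 lower (median 0.05) and 10 of the G2 and M genes higher (median 0.67). Ube2c, which marks mitotic cyclins for destruction, stood at 621, 667, 627 and 612 CPM against 204, 156, 169 and 216 in Gja5-high cells, without overlap (1.88, SE 0.09, adjusted p = 7.7e-11). Top2a, the topoisomerase of dividing cells, stood at 263, 141, 358 and 115 CPM, and was higher within each source than in Kitl+ cells (180, 51.9, 180 and 70.3 CPM) although the ranges overlapped (0.86, adjusted p = 0.00245). Mki67, another gene of dividing cells, was found in 70 of 79 cells and was not called in any of the 3 comparisons (0.15, 0.11 and 0.54). Ccnd1, cyclin D1 of early G1, stood at 306, 253, 308 and 346 CPM against 41.9, 33.7, 68.4 and 44.8 in remaining cells (2.77) and was not called against Kitl+ cells (0.45).

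Genes of blood formation were lower than in remaining cells, which hold the cells that failed the limits on Gfi1, Neurl3 and C1q. Of the 11 haemogenic genes tested 11 were lower (median -4.55), and against Kitl+ cells 0 of 3 were called. Against Gja5-high cells the list was divided, with 2 of 6 higher (Kit and Mycn) and 3 lower (median -0.97). The summed level of the list was 89.1 to 113 CPM in Nr2f2+Aplnr+, 67.0 to 121 in Kitl+, 239 to 271 in Gja5-high and 694 to 924 in remaining cells. Runx1, the factor needed for blood to form from endothelium, stood at 0, 4.52, 2.77 and 1.15 CPM against 115, 74.7, 153 and 71.7 in remaining cells (-5.74, adjusted p = 1.35e-09), and Spi1 at 0, 1.13, 0.553 and 1.15 against 115, 101, 109 and 122 (-7.43). Procr, the protein C receptor used to sort pre-haematopoietic cells, was present at 17.6, 23.7, 11.1 and 21.9 CPM. Neurl3, which had a part in the choice and was not tested, had a UMI in 17 of the 79 cells. Its mean of 10.7 CPM was 0.237 times that of remaining, 0.629 times that of Gja5-high and 2.86 times that of Kitl+ cells.

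**Figure D4:**
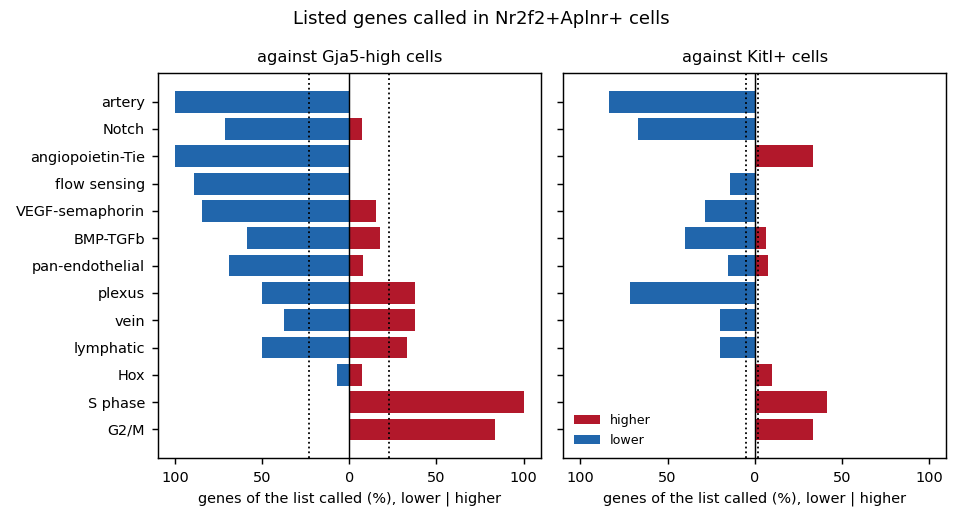
Percent of the tested genes of each of 13 lists called lower (blue) or higher (red) in Nr2f2+Aplnr+ cells by edgeR at an adjusted p under 0.05, against Gja5-high cells and against Kitl+ cells, with dotted lines at the share over all genes tested. Arterial, Notch and plexus genes are the lists with the largest lower shares against Kitl+ cells (10 of 12, 6 of 9 and 5 of 7), and 5 of 12 S phase and 4 of 12 G2 and M genes are higher.

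Nupr1, the targeted gene, had 0 UMIs in all 79 cells. The 2 control sums held 0 of 2358547 UMIs, which allows up to 1.27 CPM at 3 counts over both sums, against 259 of 12950021 (20.0 CPM) in control remaining cells, so Nupr1 was at least 15.7-fold lower than in those cells. The remaining cells include those with both Gfi1 and Neurl3, which the choice left out, and the study found Nupr1 in cells high in these genes. A UMI of Nupr1 was seen in 53 of the 252 cells outside the named classes and 17 of 437 Gja5-high cells. In Gja5-high control sums it stood at 3.55 and 11.9 CPM, nearer the bound of 1.27. By sum it stood at 21.6, 18.3, 1.15 and 2.57 CPM in remaining cells, where the fall in cKO goes with the labels. In Nr2f2+Aplnr+ cells, and in Kitl+ cells, which were also at 0 in every sum, the labels could not be checked with it. Tnf, the cytokine the study followed, had 0, 0, 0.553 and 0 CPM in Nr2f2+Aplnr+ cells and was too low to be tested.

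Nr2f2+Aplnr+ cells made up 7.49% of Cdh5 cells in control replicate 1 (exact binomial 95% interval 4.42 to 11.7), 7.82% in control replicate 2 (4.34 to 12.8), 15.9% in cKO replicate 1 (11.6 to 21.1) and 4.89% in cKO replicate 2 (2.26 to 9.08). The cKO value was the highest in replicate 1 and the lowest in replicate 2, so the cKO minus control difference was 8.43 percentage points in one and -2.93 in the other. Means were 10.4% ± 7.80 (SD, n = 2) for cKO and 7.66% ± 0.235 (SD, n = 2) for control, and the difference of 2.75 points gave p = 1 in a two-sided exact permutation test, which cannot give less than 0.33 with 2 against 2. Without cKO replicate 1 it was -2.76. With members at 3 or more UMIs of Nr2f2 the replicate 2 difference was 0.42 points in place of -2.93. As a share of Cdh5 cells with low Gja5 and C1q, the values were 21%, 22.6%, 27.5% and 14.1%, a difference of -1.02 points.

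**Figure D5:**
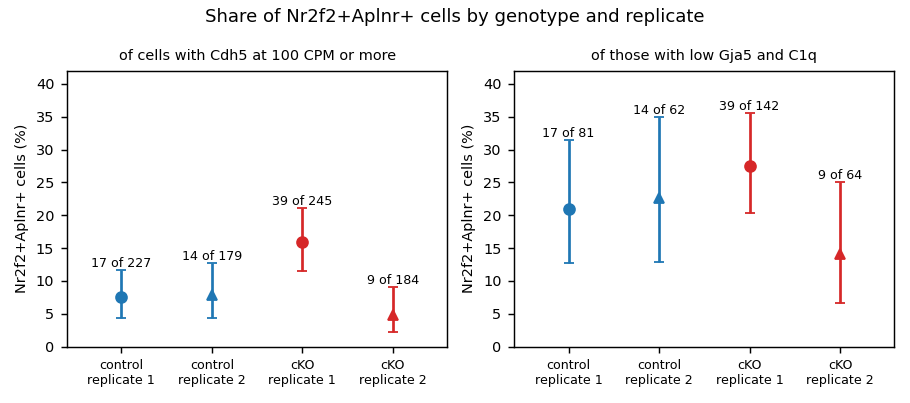
Share of Nr2f2+Aplnr+ cells in percent, among all Cdh5 cells (left) and among those with low Gja5 and C1q (right), for each genotype and replicate, with exact binomial 95% intervals as bars and cell counts printed. cKO lies above control in replicate 1 (15.9% against 7.49% on the left) and below it in replicate 2 (4.89% against 7.82%).

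Within the Nr2f2+Aplnr+ cells no gene of 7919 was called between cKO and control by edgeR's quasi-likelihood test (0%), with 76 at an unadjusted p under 0.05, while DESeq2 called 2. With simulated 2-fold and 4-fold changes in sums of this size, the test recovered 11% and 62%. The 2 genotypes share each replicate pool, and with the replicate as a block 8 genes were called. Without cKO replicate 2, the smallest class with 9 cells, 71 were called, without control replicate 1 13, without control replicate 2 7 and without cKO replicate 1 6. Under the block Cdkn1a, the p21 inhibitor of the cell cycle, was higher in cKO at 63.9 and 57.5 CPM against 14.2 and 7.91 in control (log2 fold change 2.36, adjusted p = 0.00906). Car2, a carbonic anhydrase abundant in red cells, stood at 50.6 and 16.1 against 6.11 and 2.26 CPM (2.96, adjusted p = 0.00906), and the spermidine acetyltransferase gene Sat1 at 101 and 165 against 31.2 and 67.8 (1.47, adjusted p = 0.00906). Lower in cKO were Tsix, the antisense partner of Xist, at 0 and 0 against 21.7 and 14.7 CPM (-8.15, a fitted value and no bound), Col15a1, a collagen of basement membranes, at 37.4 and 70.2 against 80.1 and 157 (-1.14, adjusted p = 0.0364), A330069E16Rik, Hspa1a and the embryonic globin Hbb-y. Of these 8 Hbb-y overlapped between the genotypes, and the others were picked by p-value, so their separation adds no support. Tsix and Sat1 lie on the X chromosome. In replicate 1 Xist without a Y-linked gene was seen in 17 of 17 control and 0 of 39 cKO cells. Sex and genotype cannot be told apart there, and the fit without cKO replicate 2 rests on that cKO sum alone.

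The cKO effect differed between Nr2f2+Aplnr+ and remaining cells for 2 of 11368 genes (0.0176%) by the interaction of class and genotype in edgeR. Sat1, which lies on the X chromosome, was higher in cKO than in control Nr2f2+Aplnr+ cells in both replicates, but lower in remaining cells, at 434 and 815 CPM against 602 and 1058. Stmn2, a microtubule-binding protein known from neurons, stood at 107 and 247 CPM in cKO and 85.5 and 113 in control Nr2f2+Aplnr+ cells, against 220 and 593 in cKO and 399 and 693 in control remaining cells. The interactions were 1.90 (SE 0.18, adjusted p = 2.03e-06) and 1.26 (SE 0.17, adjusted p = 0.000961) on the log2 scale. The remaining cells were a mixture whose makeup differed by source. Gja5-high cells were 135 of 210, 103 of 165, 87 of 206 and 112 of 175 of them, and Kitl+ cells 6, 8, 38 and 15. The part of this makeup in the differences for Sat1 and Stmn2 was not tested.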

How the data were processed

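Single-cell RNA-seq (10x Chromium) of CD31+CD44+ cells was made in 2 replicates, and each replicate pooled control and cKO cells under hashtags. The submitters' processing notes name Cell Ranger 5.0.1 and mm10. The authors kept HTODemux singlets and deposited raw counts (UMIs) of 24543 genes, without normalization, and the hashtag of each cell. Positions were taken by gene symbol from GENCODE M21 (GRCm38).

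All deposited cells were used. CPM per cell was UMIs over the deposited total. UMIs were summed per class, genotype and replicate, and compared by edgeR 4.0.16 in R 4.3.3 (filterByExpr, TMM, robust quasi-likelihood test, Benjamini-Hochberg adjustment, threshold 0.05). Comparisons of classes had the 4 sources of sums as a block. The genes that chose the cells and those that name them (and Kitl against Kitl+ cells) were taken out before adjustment and not tested. The genotype comparison had no block, and the replicate was the block of an alternative, since the pools are shared by the genotypes. Paired sums deviated together from their genotype means (r = 0.458 across 7919 genes, which are not independent replicates). Shares were compared by exact permutation. On simulated sums in which 200 genes had been changed, the fits were tested first.

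The members and gene lists were chosen with earlier results of these data known. The genes named are those that chose or name the cells, Nupr1, Tnf and Xist, the 12 largest changes in each direction of each comparison of classes (adjusted p under 0.05, same direction in all 4 pairs, mean of 20 CPM or more in the higher class, no predicted or ribosomal genes), up to 5 members per list, the genes called between genotypes, and the 8 most like Nr2f2. Lymphatic and other list members beyond these, and the genes called under the replicate block, were named after their values were seen.

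Alternatives were DESeq2 1.42.0, no low-count filter, RLE normalization, no block or the replicate block, each sum left out, other limits on Nr2f2 UMIs, a choice in CPM, both Gfi1 and Neurl3 at 0, thinning to 10000 UMIs and the study's cell limits. Those added after seeing the data, the cells of at least 40000 UMIs among them, are named as such in the closing section. Flow cytometry and culture data were not analysed here. Some genes that the rule would name are not reported here.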

Additional observations from a re-analysis of the deposited data

Results flagged for a closer look

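Sat1 drew attention because the cKO effect differed between Nr2f2+Aplnr+ and remaining Cdh5 cells by 1.90 on the log2 scale in edgeR's interaction test of class and genotype (adjusted p = 2.03e-06). Stmn2 did so with a difference of 1.26 (adjusted p = 0.000961). Both genes were higher in cKO than in control within Nr2f2+Aplnr+ cells and lower within remaining cells, in each replicate. The remaining cells differed between the genotypes in their makeup of Gja5-high and Kitl+ cells, and the part of that makeup was not tested. Within Nr2f2+Aplnr+ cells alone neither was called between the genotypes without the replicate block (log2 fold changes 1.43 and 0.82, both with adjusted p = 1).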

How the results depend on the processing

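Of 4324 alternative values for genes called in a comparison of classes, 3765 kept direction and call, 536 kept direction but lost the call and 23 changed direction. Cells thinned to 10000 UMIs before they were chosen left 13 members (3, 2, 6 and 2), 227 genes called against remaining cells in place of 3462 and a median of all genes of -0.41. There the direction turned for Ephb4 (-1.91), Dab2 (-1.46), Tgfbr2 (-0.82), Kdr (-0.51), Egfl7 (-0.41), Tgfb2 (-0.31), Tyms (-0.25), Cldn5 (-0.24), Hmmr (-0.23), Foxo1 (-0.23), Fos (-0.21), Pcna (-0.18), Stab1 (-0.17), Mcm5 (-0.10), Hoxb7 (-0.044) and Mcm3 (-0.0029). In cells of at least 40000 UMIs, an alternative added after seeing the data, as was the choice in CPM against Gja5-high and Kitl+ cells, it turned against remaining cells for Flt1 (0.45), Nos3 (0.37), Tek (0.28), Ramp2 (0.20), Esam (0.15) and Mcm5 (-0.033), and against Gja5-high cells for Kitl (-0.075). The deep cells gave 2404 genes against Gja5-high cells (4455 with all cells) and 140 against Kitl+ cells (505 with all cells). Against Kitl+ cells DESeq2 called 228 genes and the test without a low-count filter 766. Leaving out 1 source gave 194 to 812 genes there, with 194 without cKO replicate 1, 263 without cKO replicate 2 and 812 without control replicate 2, against 2368 to 3260 for remaining and 3477 to 4263 for Gja5-high cells. The causes were not tested.

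Without the block of sources 1984 genes were called against remaining and 74 against Kitl+ cells. With the replicate as a block, which pairs the genotypes of a pool, 8 genes were called between cKO and control in place of 0. Counts for the genotype were 2 by DESeq2, 14 without a low-count filter, 1 (Gja4) with the choice in CPM, and 6 to 71 when 1 sum was left out. Over the 79 cells Gja4 had a median of 0 CPM and a highest value of 1818 CPM, so its sums can rest on few cells. The interaction called 29 genes without the filter in place of 2. The share difference of 2.75 percentage points was -1.02 among cells with low Gja5 and C1q and -2.76 to 8.26 with 1 sum left out. The summed depth in the genotype comparison was 868885 to 3613990 UMIs.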

Other observations

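Across the 79 Nr2f2+Aplnr+ cells, the genes whose CPM went most with that of Nr2f2, of 9416 genes, were Nrp2 (r = 0.584), the growth factor Igf1 (0.549), the integrin Itga6 (0.488), the DNA methyltransferase Dnmt3a (0.472), Casd1 (0.463), Slk (0.447), Hoxa5 (0.446) and Bmp4 (0.432). These are descriptions over cells of 4 sums that share a depth denominator. Over the 8 sums of Nr2f2+Aplnr+ and remaining cells, of 6699 genes, they were Slc29a1 (0.997), Rap2a (0.996), Nrp2 (0.990), Gng2 (0.990), Bgn (0.990), Slc25a4 (0.989), Gm266 (0.988) and Ccnd1 (0.988), an order set by the choice of the cells. Nrp2 stands in both lists. Both Nrp2 and Clec1b were found in 71 of the 79 cells.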
